A study of Homo sapiens and Mus musculus with 21 samples.

Results

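The DHX15 peaks described here were those that no annotated gene contained. They came from RNA immunoprecipitation sequencing (RIP-seq), in which RNA bound to the RNA helicase DHX15 is recovered with an antibody and read by sequencing. A peak was a stretch of genome where the authors called that RNA enriched. A peak counted as outside when it did not lie wholly within the span of any RefSeq gene of any kind on GRCh38, whichever strand the gene was on. There were 349 such peaks among the 4499 in the authors' list (7.76%), and the other 4150 lay wholly inside a gene. Most of the 349 were not intergenic. Of these peaks, 298 (85.4%) shared bases with a gene and ran past its end, and 51 (14.6%) touched no gene. Among the 298, 25 had every base in one gene or another, because they spanned the joint between overlapping genes. They are therefore called peaks not contained in a gene.

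The study examined DHX15 in CUTLL1, a cultured cell line grown from a human T-cell acute lymphoblastic leukemia, and in mouse thymus, which was not analysed here. The peak list was made from RIP of untreated CUTLL1 cells, for which the labels give 2 DHX15 antibody libraries, 1 control IgG library and 1 library of input RNA. RNA-seq of CUTLL1 covered 3 libraries with a lentiviral hairpin against GFP (shGFP), 3 with the hairpin shDHX15-1 and 3 with the hairpin shDHX15-2. A second experiment had 3 libraries treated with the solvent DMSO and 3 treated with ciclopirox, an iron-chelating antifungal, at 5 µM according to the name of the authors' table. All groups were the same cell line, the labels do not say that replicates were separate cultures, and p-values therefore measure the spread between these libraries.

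DHX15 is a DEAH-box helicase that unwinds RNA and is known for taking apart the spliceosome after an intron has been removed. A gene's annotated 5′ end marks where its transcript starts, and its 3′ end marks where the transcript is cut and polyadenylated. Transcription itself runs on past the 3′ end before RNA polymerase II is released, and some transcripts begin upstream of the annotated start.

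The 8 stretches printed here lie before gene starts and show where the peaks near 5′ ends lay. Each line gives, from RefSeq on GRCh38, the 150 bases before the annotated start of a gene, read 5′ to 3′ on the gene's strand, with the bases covered by the peak in capitals. The first 4 peaks touched no gene and were chosen as those with the highest fold enrichment on the strand of the gene among those with at least 10 of the bases before the start covered.
FDXACB1: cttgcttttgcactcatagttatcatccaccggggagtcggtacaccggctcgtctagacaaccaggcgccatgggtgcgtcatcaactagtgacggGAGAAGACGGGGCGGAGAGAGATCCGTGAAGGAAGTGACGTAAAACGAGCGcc
SSR3: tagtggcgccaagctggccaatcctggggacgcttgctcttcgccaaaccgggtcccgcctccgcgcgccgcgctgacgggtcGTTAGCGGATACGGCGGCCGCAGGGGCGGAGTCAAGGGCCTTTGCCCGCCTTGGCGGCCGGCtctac
BRSK1: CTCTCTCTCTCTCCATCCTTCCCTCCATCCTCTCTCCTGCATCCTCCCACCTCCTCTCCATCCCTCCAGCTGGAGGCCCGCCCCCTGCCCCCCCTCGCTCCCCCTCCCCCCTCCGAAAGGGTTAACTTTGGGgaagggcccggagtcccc
SMS: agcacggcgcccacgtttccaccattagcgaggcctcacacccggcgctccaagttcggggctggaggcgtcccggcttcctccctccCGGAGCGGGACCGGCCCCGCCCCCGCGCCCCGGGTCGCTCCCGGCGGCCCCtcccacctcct
The FDXACB1 window was chr11:111879166-111879315 on the minus strand, and its peak stopped 3 bases before the gene. The SSR3 window was chr3:156555118-156555267 on the minus strand, and its peak stopped 6 bases before the gene. The BRSK1 window was chr19:55283847-55283996 and the SMS window was chrX:21940559-21940708, both on the plus strand, and their peaks stopped 19 and 12 bases before the gene. In all 4 the peak ended short of the annotated first base.

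The next 4 were the peaks crossing the 5′ end of 1 gene with the highest fold enrichment by the same rule, so the capitals run through to the last base before the gene.
ABRAXAS1: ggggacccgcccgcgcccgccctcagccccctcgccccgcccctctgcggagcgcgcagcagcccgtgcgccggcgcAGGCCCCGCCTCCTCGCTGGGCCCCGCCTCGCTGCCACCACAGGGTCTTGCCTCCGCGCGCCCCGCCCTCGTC
GSTM2: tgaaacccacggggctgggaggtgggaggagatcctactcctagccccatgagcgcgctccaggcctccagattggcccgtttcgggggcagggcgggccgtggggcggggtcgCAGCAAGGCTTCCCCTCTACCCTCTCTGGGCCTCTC
PDCD4: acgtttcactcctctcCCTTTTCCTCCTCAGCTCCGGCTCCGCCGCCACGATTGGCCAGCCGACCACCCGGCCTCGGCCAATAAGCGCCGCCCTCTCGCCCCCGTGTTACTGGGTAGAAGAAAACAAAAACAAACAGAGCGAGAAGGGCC
ADM5: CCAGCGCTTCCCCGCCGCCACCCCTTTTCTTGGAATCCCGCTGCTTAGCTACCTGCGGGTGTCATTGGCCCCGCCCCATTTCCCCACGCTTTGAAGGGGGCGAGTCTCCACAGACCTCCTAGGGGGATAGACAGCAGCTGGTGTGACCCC
These windows were chr4:83485101-83485250 on the minus strand for ABRAXAS1, and chr1:109667907-109668056, chr10:110871778-110871927 and chr19:49689444-49689593 on the plus strand for GSTM2, PDCD4 and ADM5. The peaks reached 73, 36 and 134 bases before ABRAXAS1, GSTM2 and PDCD4, and past the window for ADM5. The letters GGGCGG, searched on both strands, were present in all 8 printed stretches. The same letters occurred in 76.0% of the 208 promoter windows (250 bases before to 50 bases after a start) that a peak not contained in its gene touched. They occurred in 71.0% of the windows of 2324 genes that held a peak wholly inside, and in 44.6% of the windows of 27305 genes, 1 window a gene.

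The touched promoter windows were rich in G and C. Their median GC content was 66.7% (quartiles 61.9 and 73.3), against 65.7% for genes with a peak inside and 58.3% for all genes. They held a median of 28.5 CpG dinucleotides, against 27.0 and 14.0. TATAAA, the letters of the TATA box, was found on either strand in 3.85% of them, 4.91% of the windows of genes with a peak inside and 12.0% of all. CCAAT was found in 35.1%, 34.2% and 35.7%. In these measures the touched promoters lay close to those of genes with a peak inside, and a match of letters is a description and not a binding site.

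**Figure D1:**
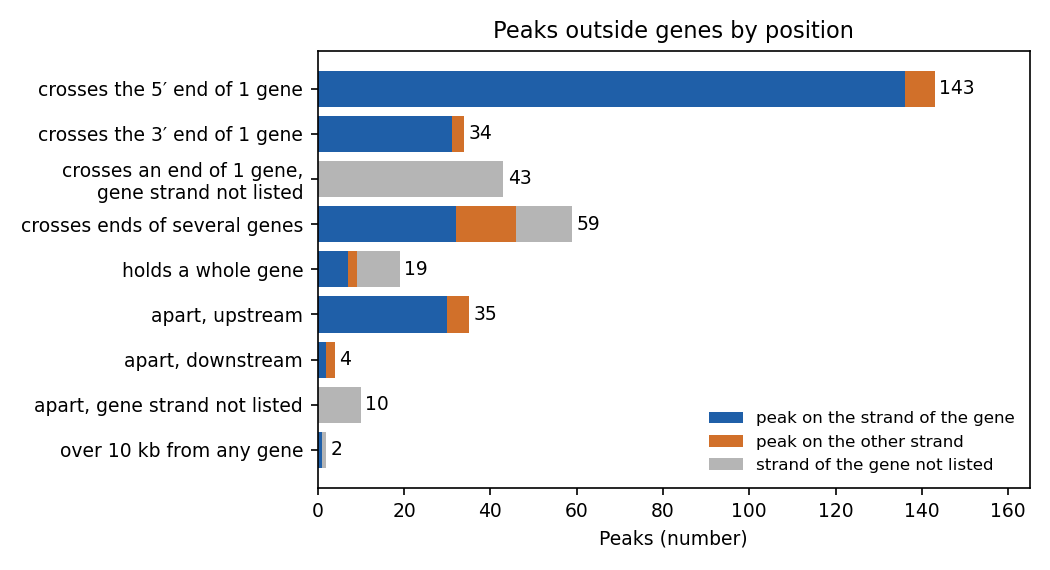
Number of peaks not contained in a gene by position (x axis, number of peaks), with colours for the strand of the peak against the strand of the gene; grey marks genes whose strand the reference table does not list. The largest group, 143 peaks, crossed the 5′ end of 1 gene.

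Peaks at 5′ ends were the most numerous. By position, 143 peaks crossed the 5′ end of 1 gene, 34 crossed the 3′ end of 1 gene, 43 crossed an end of 1 gene whose strand the reference does not list, 59 crossed ends of several genes and 19 held at least 1 whole gene. Of the 51 peaks that touched no gene, 35 lay upstream of the nearest gene, 4 lay downstream, 10 lay beside a gene of unlisted strand and 2 lay more than 10000 bases from any gene. The strand of a gene was listed for 29079 of 59792 genes, and for 15843 of 20056 protein-coding genes, which limits the split into 5′ and 3′. Read by the strand of the peak itself, 43 of the 61 peaks past an end of unlisted direction were at the 5′ end and 18 at the 3′ end, and the 10 apart peaks fell 7 upstream and 3 downstream.

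Counting for each peak the gene that left the fewest of its bases outside, 181 peaks passed that gene's 5′ end, 47 its 3′ end and 9 both. The peak was on the strand of the gene in 167 of the 181 at the 5′ end (92.3%) and in 36 of the 47 at the 3′ end (76.6%). Over all peaks not contained in a gene and of listed strand the share was 87.9% (239 of 272), and over peaks inside genes it was 90.2% (3090 of 3426). Inside genes, more peaks likewise lay near the 5′ end than near the 3′ end, in a less uneven split. There, 191 of 3426 peaks (5.58%) ended within 100 bases inside the 5′ end, and 110 (3.21%) within 100 bases inside the 3′ end.

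**Figure D2:**
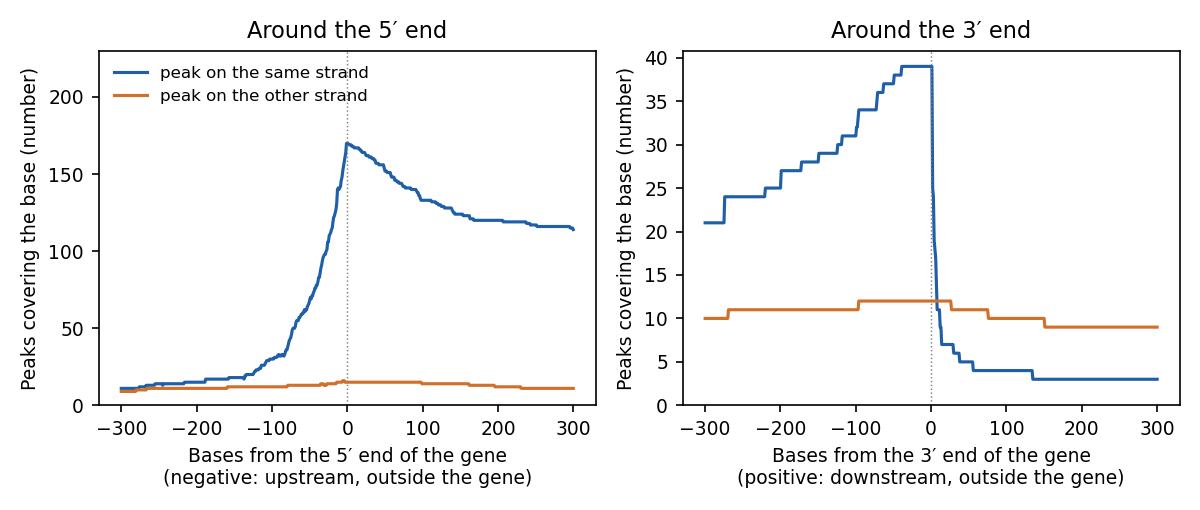
Number of peaks (y axis) covering each base around the 5′ end (left) and 3′ end (right) of the gene, by distance in bases (x axis), for peaks that pass that end or lie upstream or downstream of it. On the strand of the gene, 170 of 200 peaks covered the first base and 30 the base 100 upstream, while 39 of 41 covered the last base and 11 the base 10 downstream.

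The reach beyond the gene differed between the ends and between strands. On the strand of the gene, peaks past the 5′ end left a median of 32.0 bases outside, and 146 of 167 left at most 100. Around the start, counting upstream peaks too, 170 of 200 peaks on the gene's strand covered the first base of the gene, 68 the base 50 upstream, 30 the base 100 upstream and 14 the base 250 upstream. At the 3′ end peaks on the gene's strand left a median of 3.0 bases outside, and 27 of 36 left at most 10. At most 1 base was left by 14 of these 36, against 7 of the 167 at the 5′ end. With peak starts moved up by 1 base, as considered below, 34 peaks in place of 47 passed the 3′ end, and 175 in place of 181 the 5′ end. The part of the start positions in the medians was not tested. Coverage fell from 39 of 41 peaks at the last base to 11 at 10 bases downstream and 4 at 100 bases. Peaks on the other strand reached further, with medians of 299.0 bases past the 5′ end (14 peaks) and 804.0 bases past the 3′ end (11 peaks). Since the peaks were chosen for passing an end, these values describe their extent and no test was made.

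**Figure D3:**
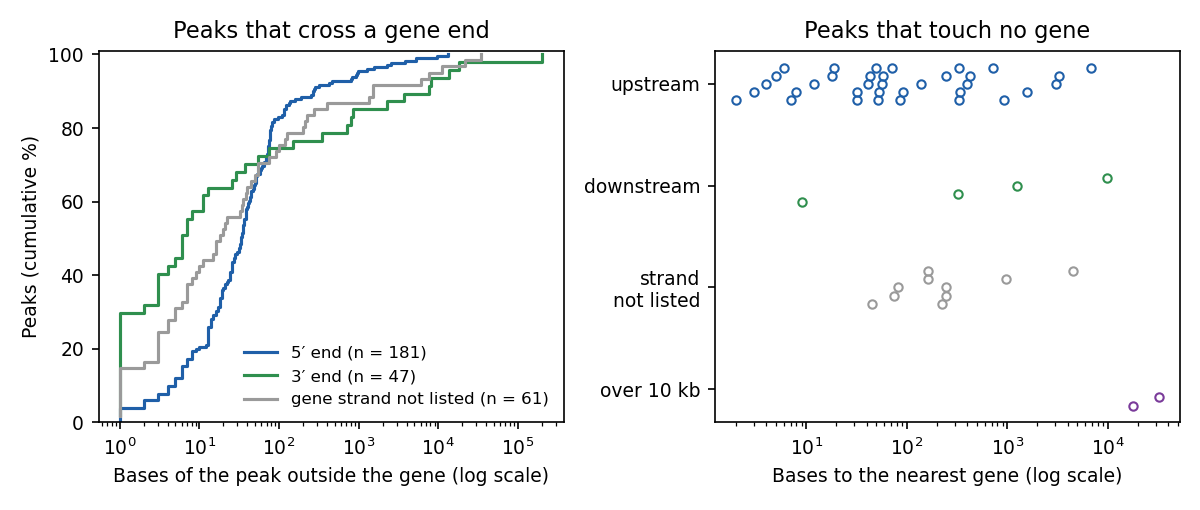
Left, cumulative share of peaks (y axis, %) by the number of their bases outside the gene (x axis, log scale), by the end passed. Right, distance in bases (x axis, log scale) from each peak that touches no gene to the nearest gene, 1 circle a peak; 26 of the 51 lay within 100 bases.

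Many peaks missed containment by little. Of the 298 that touched a gene, 30 had at most 1 base outside it, 90 at most 10, 194 at most 50 and 234 at most 100, and 28 had more than 1000. Of the 30, peaks at ACTR1A, ATXN1-AS1 and BRPF3, for example, had fold enrichments of 1.56, 2.28 and 1.86, and in these 3 the base outside was the first of the peak. At ATXN1-AS1 and BRPF3 that base lay inside an overlapping gene, ATXN1 and BRPF3-AS1, so these peaks had no base outside all genes. Just inside the limit, peaks of CABLES2, CCDC137 and DHX57 ended exactly at the gene's end, with folds of 1.51, 1.61 and 1.52. The 90 peaks 1 to 10 bases outside had a median fold of 1.70 and a median length of 473.0 bases, and the 100 peaks ending 0 to 10 bases inside had 1.67 and 488.0. The start positions in the list appear to count from 0, because 46 peaks had a start 1 below the first base of a gene and 2 had a start equal to it, while 32 peak ends equalled a gene's last base. With starts moved up by 1 base, 28 of the 349 peaks would lie inside a gene and 321 would not. Coordinates are given as deposited.

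**Figure D4:**
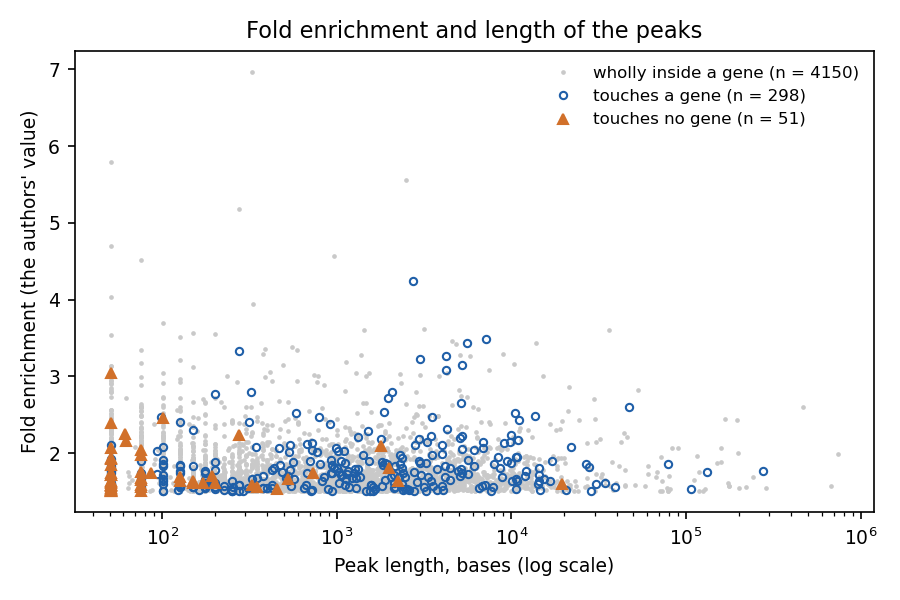
Fold enrichment as given by the authors (y axis) against peak length in bases (x axis, log scale). Peaks that touch a gene reach a fold of 4.24 and are mostly long; peaks that touch no gene are mostly short, with a highest fold of 3.04.

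The fold enrichment and the false discovery rate (FDR) of each peak are the authors' values, 1 for each peak and none for each library, so they are described and not tested. The median fold was 1.70 (quartiles 1.58 and 1.90) for peaks not contained in a gene and 1.64 for peaks inside. A fold of at least 2 was reached by 69 of 349 (19.8%) and by 549 of 4150 (13.2%). Peaks touching a gene were long, with a median of 1107.5 bases. Those touching none were short, with a median of 76.0 bases, and 22 of the 51 had 51 bases, the shortest length in the list. Peaks inside genes had a median of 350.5 bases. At least 2000 bases were spanned by 118 peaks not contained in a gene (33.8%) and 940 peaks inside (22.7%). A longer peak has more chance of passing a gene's end, and the part of length in these differences was not tested.

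Peaks that held a gene whole were among those with the highest folds. IZUMO4, a relative of the sperm-egg fusion protein IZUMO1, had the highest fold, 4.24 (chr19:2096868-2099593, FDR 4.03e-14), in a peak of 2726 bases that held the gene and 50 bases around it. FASTK, which encodes a protein of mitochondrial RNA metabolism, was held whole by a peak of 4243 bases with 57 bases outside, a fold of 3.26 and an FDR of 1.49e-50 (chr7:151076617-151080859). PRSS53, a serine protease gene, was held whole with 27 bases outside at a fold of 3.44, in a peak that also reached into ZNF646 on the other strand. These 3 peaks followed the outline of the gene. The peak of 7147 bases at EFEMP2, which encodes an elastic-fibre protein of the extracellular matrix, had a fold of 3.49 and passed the 5′ end by 792 bases (chr11:65866446-65873592). It also covered the 3′ end of MUS81, an endonuclease gene that stands tail to tail with EFEMP2 and overlaps it.

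Peaks crossing the 5′ end of 1 gene had folds of up to 3.22. ABRAXAS1, a subunit of a BRCA1 complex of DNA repair, had a peak with that fold and 3005 bases, of which 73 were outside. GSTM2, a glutathione transferase gene, had 3.15 with 36 bases outside. PDCD4, an inhibitor of translation initiation, had 3.08 with 134 bases outside. ADM5, a gene of the adrenomedullin family, had 2.54 with 931 bases outside, the longest reach of the 4. The longest peaks of this kind lay on PDZD4 (22034 bases, 4 outside, fold 2.08) and CDK18, a cyclin-dependent kinase gene (20551 bases, 50 outside, fold 1.52).

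In peaks crossing the 3′ end of 1 gene, the 4 highest folds belonged to peaks with 1 or 2 bases outside. MAPK11, the p38β stress kinase, had a fold of 3.33 in a peak of 276 bases with 1 base outside (chr22:50263712-50263987). HSF4, a heat shock transcription factor gene, had 2.66 in a peak of 5132 bases with 1 base outside, and TMEM143 had 2.40 in 126 bases with 1 outside. IFI27L1, of an interferon-inducible family, had 2.19 with 2 bases outside. For MAPK11 and TMEM143, on the minus strand, that base is the one at issue in the start positions, and with starts moved up 34 peaks in place of 47 passed the 3′ end. A different shape was seen at the lncRNA LOC124900954, whose peak of 14350 bases had 13773 bases beyond the 3′ end and a fold of 1.63. The lowest FDR of all 349 was 5.39e-55, for a 201-base peak of fold 2.78 at the 3′ end of PLSCR3, a phospholipid scramblase gene (chr17:7389726-7389926). It had the same 1 base outside PLSCR3 and lay where the 3′ end of TNK1 on the other strand overlaps it.

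Among the 61 peaks at an end of unlisted direction, the highest folds in the single-gene group were 2.79 at GLI4, 2.79 at P2RX1, 2.22 at GPR162 and 2.18 at CDH24, with 9, 35, 202 and 16 bases outside. By the strand of the peak, each of these 4 was at the 5′ end. The longest peak of the group, 34193 bases, shared 30 bases with RPL39L, a ribosomal protein paralogue gene, and lay otherwise outside it with a fold of 1.61.

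Gene pairs accounted for many of the 76 peaks that touched more than 1 gene. In 34 peaks touching exactly 2 genes of listed strand, the genes stood head to head on opposite strands in 21, tail to tail in 5, in a row on 1 strand in 5, and shared an end on 1 strand in 3. The head-to-head pairs included DDX5 and CEP95 (fold 2.01), FRS3 and PRICKLE4 (2.43), NPC2 and ISCA2 (2.12), and INTS6 with its antisense gene INTS6-AS1 (1.53). DDX5 encodes another RNA helicase and INTS6 a subunit of the Integrator complex. At HHIP, which encodes a hedgehog-binding protein, a 726-base peak on the gene's strand (fold 2.13) and a 14292-base peak on the other strand (fold 1.72) both crossed the 5′ end. INO80E and PRICKLE4 likewise had a peak on each strand. In all, 29 of the 349 peaks overlapped another peak (8.31%, against 3.49% of peaks inside genes), and 25 of them overlapped one on the other strand.

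FBXL6 had 3 such peaks, and HHIP, INO80E, MRPL38, PRICKLE4, RAB1B and RCN3 had 2 each, so that the 349 peaks belonged to 341 genes. At RAB1B, a small GTPase of transport from the endoplasmic reticulum to the Golgi, a 51-base peak ended 57 bases before the start and a second peak of 3179 bases began 7 bases before it. At RCN3, of the reticulocalbin family, 1 peak passed the 5′ end by 36 bases and another passed the 3′ end by 4. Of the 341 genes, 138 also held a peak wholly inside (40.5%). The gene was a lncRNA for 28 of the 349 peaks (8.02%) and for 114 of the 4150 peaks inside (2.75%), and protein-coding for 317 (90.8%) and 4019 (96.8%). These shares are not measured alike. For a peak inside several genes, a protein-coding gene was taken first. For the 349, the fewest bases outside or the shortest distance came first, so that a lncRNA could be taken before a protein-coding gene.

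The longest peak, of 274465 bases on chromosome 11 (chr11:31816626-32091090, fold 1.77), touched 12 genes, from PAX6 to RCN1, and held 9 of them whole, 204049 of its bases being outside PAX6-AS1. A peak of 131091 bases on chromosome 9 (fold 1.75) held the pseudogene PAICSP2 and the microRNA genes MIR3910-1 and MIR3910-2. Another, at LOC105377510 on chromosome 4 (fold 1.53), had 106975 bases. Other peaks held the hairpins of MIR135A1, MIR10A and MIR4321 whole. The MIR10A peak was called on the plus strand and also touched HOXB3 and HOXB4, whereas MIR10A is on the minus strand. The 349 peaks summed to 1628351 bases, 36.3% of them in no gene. The peak with most such bases had 182179, summed over the gaps between the genes it touched.

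Upstream peaks were short and close. Of the 35, 30 were on the strand of the gene, 22 lay within 100 bases of the start and 16 had 51 bases. The closest were at APOOL (2 bases), FDXACB1 (3), LOC107984674 (4) and ZC3H15 (5). FDXACB1 had the highest fold of these peaks, 3.04, at an FDR of 0.00141. The next were CEP43, a centrosomal protein gene, with 2.25 at 332 bases and on the other strand, and LPAR2, a lysophosphatidic acid receptor, with 2.24 at 430 bases and an FDR of 6.16e-14. SSR3, a subunit of the translocon-associated complex of the endoplasmic reticulum, had 2.16. Peaks further off were rare, the furthest being 6899 bases before FIS1. The 2 longest were 19488 bases on the other strand 3279 bases before DBH (dopamine beta-hydroxylase) and 1985 bases at a distance of 1589 bases before SPHK1 (sphingosine kinase).

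Downstream peaks numbered 4. They lay 9 bases after TPT1-AS1 (fold 1.63) and 9854 bases after KCTD13-DT (fold 1.97) on the strand of the gene, and 327 bases after HGS (fold 1.56) and 1252 bases after AKAP13 (fold 1.63, FDR 6.83e-16) on the other strand. Neither protein-coding gene among them had a downstream peak on its own strand. Of the 10 peaks beside genes of unlisted strand, the highest folds were 2.39 at SLC37A2, 1.94 at SLF2, 1.85 at UNC13D and 1.74 at CHRAC1, at 164, 45, 163 and 4535 bases. The 2 peaks far from genes were a 101-base peak on chromosome 6 (chr6:45663953-45664053, fold 2.46, FDR 0.00858), 17743 bases from the snRNA gene LOC124901518, and a 76-base peak on chromosome 4 (chr4:97187742-97187817, fold 2.05, FDR 2.33e-16), 32120 bases from the lncRNA LOC124900737.

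The genes of these peaks were next followed in the RNA-seq, which the choice of peaks did not use. DHX15 itself was at 42.8, 44.1 and 43.2 RPKM (reads scaled to gene length and library total) with shGFP, 17.1, 17.3 and 16.5 with shDHX15-1, and 16.1, 16.5 and 16.8 with shDHX15-2. The knockdown libraries held 59702150 to 62633707 reads, and 32451469 to 37177509 reads were counted in genes in the ciclopirox experiment. Of 17 T-cell leukemia markers, 16 were listed and 15 were at 1 RPKM or more with shGFP. The 16 listed markers summed to 938 to 984 RPKM with shGFP. They summed to 1051 to 1056 with shDHX15-1 and 1151 to 1177 with shDHX15-2. Of 14 markers of other cell types, 3 were listed (CD79A, CD68 and PECAM1), at 47.0 to 49.0 RPKM in sum with shGFP, 55.8 to 57.5 with shDHX15-1 and 83.3 to 84.7 with shDHX15-2. The part of these shifts in the results below was not tested.

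Of the 341 genes, 313 were in the RPKM table, with a median of 6.74 RPKM with shGFP, against 6.45 for genes with a peak inside only and 3.91 for all genes listed. The filter of at least 1 RPKM in at least 3 of 9 libraries passed 305. Of these, 9 had no shGFP library at 1 RPKM and so passed through the knockdown libraries, and 8 of the 9 were called higher. A gene was called at an adjusted p under 0.05 in limma over all genes tested, with Benjamini-Hochberg adjustment, on log2(RPKM + 1). For the mean of both hairpins, 174 of 305 were higher (57.0%) and 75 lower (24.6%). Over all 15022 genes tested, 42.6% were called higher and 30.2% lower, and among the genes with a peak inside only 50.7% and 28.3%. The median log2 fold change was 0.15, against 0.06 over all genes and 0.09 for the genes with a peak inside only. These medians are small beside those of single genes named below.

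The counts for each hairpin were as follows. With shDHX15-1, 184 were higher and 60 lower (60.3% and 19.7%), against 45.4% and 28.9% of all genes tested (74.3% in either direction). With shDHX15-2, 150 were higher and 79 lower (49.2% and 25.9%), against 35.6% and 30.1%. In both hairpins 135 were higher and 45 lower, against 28.8% and 20.4% of all genes, and the 2 comparisons share the shGFP libraries. The split over all genes depended on the scaling. With shDHX15-1, 61.1% of all called genes were higher with the authors' scaling, 49.3% after quantile normalisation, 51.1% with edgeR and 49.0% with DESeq2 on recovered reads, and the genes of these peaks then stood at 159 higher and 92 lower, 164 and 95, and 155 and 98. For the mean of both hairpins the share over all genes went from 58.5% to 49.1% after quantile normalisation, 50.4% with edgeR and 48.3% with DESeq2, which called 150 of the genes of these peaks higher and 100 lower. Higher calls outnumbered lower calls among them under each scaling.

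By position, the genes whose 5′ end a peak passed were higher in 93 of 167 and lower in 44 for the mean of both hairpins (55.7% and 26.3%). Those whose 3′ end a peak passed were higher in 21 of 38 and lower in 14 (55.3% and 36.8%), where 42.6% and 30.2% of all genes tested were. With shDHX15-2 alone, 14 of the 38 in the 3′ group were higher and 16 lower (36.8% and 42.1%), where 35.6% and 30.1% of all genes tested were. The share called higher was thus near that over all genes, and the share called lower was above it. For the mean of both hairpins, the genes of upstream peaks were higher in 12 of 31 and lower in 10 (38.7% and 32.3%), shares near those over all genes. With shDHX15-1 their shares were 45.2% and 32.3%, where 45.4% and 28.9% of all genes tested were. With shDHX15-2 they were 45.2% and 35.5%, where 35.6% and 30.1% of all genes tested were. Among the genes with several peaks, RCN3 was at 2.92, 2.30 and 2.34 RPKM with shGFP, 4.12, 4.35 and 4.16 with shDHX15-1, and 4.27, 3.55 and 3.89 with shDHX15-2, and rose by 0.53 on the log2 scale (limma adjusted p = 7.01e-05). PRICKLE4 fell from 28.2, 27.6 and 25.5 RPKM with shGFP to 18.5, 17.4 and 18.0 with shDHX15-1 and 21.3, 22.3 and 22.7 with shDHX15-2. HHIP fell by 0.26 (limma adjusted p = 3.8e-05) and by 0.66 with ciclopirox (0.000189), and FBXL6, an F-box protein gene, rose by 0.24 (6.08e-05). INO80E, a chromatin remodelling subunit with a peak on each strand at its start, was at 12.3, 12.3 and 12.9 RPKM with shGFP and 12.3 to 12.8 in the knockdown libraries, and was not called (limma adjusted p = 0.952).

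Genes with strongly enriched peaks were called higher in a larger share. Of the 61 tested genes with a peak of fold 2 or more that no gene contained, 45 were higher and 10 lower for the mean of both hairpins (73.8% and 16.4%), with a median log2 fold change of 0.33. The 61 included EFEMP2 and GSTM2, which passed the filter only through the knockdown libraries. The share without such genes was not computed. Of the 244 whose peaks were all under fold 2, 129 were higher and 65 lower (52.9% and 26.6%), with a median of 0.11. Among the genes with a peak inside only, the shares called higher were 53.0% with and 50.3% without a peak of fold 2 or more. This split was chosen after the values were seen, and it is given without a test. It was 62.3% against 45.9% higher after quantile normalisation, 67.7% against 46.6% with edgeR and 64.5% against 43.8% with DESeq2. With ciclopirox, 32 of 56 and 83 of 236 were higher (57.1% and 35.2%), where 23.5% of all genes tested were. Among genes with a peak inside only, 41.2% with and 34.0% without a peak of fold 2 or more were higher with ciclopirox.

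Several of the genes with the highest folds were low with shGFP. IZUMO4 was at 1.21, 1.07 and 1.25 RPKM with shGFP, 6.43, 5.42 and 5.79 with shDHX15-1, and 2.68, 2.54 and 2.89 with shDHX15-2. The 3 groups did not overlap, and the log2 fold change for the mean of both hairpins was 1.21 (SE 0.05, limma adjusted p = 1.12e-07). EFEMP2 was at 0.444, 0.430 and 0.402 RPKM with shGFP, 1.73, 1.72 and 1.60 with shDHX15-1, and 1.25, 1.16 and 1.41 with shDHX15-2. It passed the filter only through the knockdown libraries, and whether reads from the overlapping MUS81 were kept apart is not known, since the strand setting of the counting is not given in the sources used here. HSF4 was at 2.17, 1.77 and 2.37 RPKM with shGFP, 5.97, 5.75 and 6.05 with shDHX15-1, and 3.98, 3.90 and 4.27 with shDHX15-2, a log2 fold change of 0.93 (SE 0.06, limma adjusted p = 8.52e-07).

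PDCD4 rose by 0.86 and 0.79 on the log2 scale with shDHX15-1 and shDHX15-2 (limma adjusted p = 1.3e-07 and 4.35e-07). It was at 7.51, 8.29 and 7.69 RPKM with shGFP, 15.3, 14.8 and 15.0 with shDHX15-1, and 14.8, 14.3 and 13.6 with shDHX15-2. MAPK11 was at 2.43, 2.24 and 2.43 RPKM with shGFP, 4.38, 4.17 and 4.12 with shDHX15-1, and 4.07, 3.55 and 3.64 with shDHX15-2. FASTK changed less, from 10.9 to 11.7 RPKM with shGFP to 13.6 to 14.2 with shDHX15-1 and 12.5 to 13.5 with shDHX15-2. ABRAXAS1, whose peak had the highest fold of those crossing the 5′ end of 1 gene, was at 3.45, 3.69 and 3.43 RPKM with shGFP and 3.53 to 4.01 in the 6 knockdown libraries, and was not called for the mean of both hairpins (log2 fold change 0.08, limma adjusted p = 0.0515). LPAR2, whose upstream peak had a fold of 2.24, rose from 3.80, 3.30 and 3.77 RPKM with shGFP to 8.39, 8.20 and 7.58 with shDHX15-1 and 7.11, 7.26 and 7.32 with shDHX15-2. PLSCR3 was not matched in either table. Of the 42 genes of the peaks named above by class, 35 were tested, and 27 were higher and 2 lower for the mean of both hairpins (77.1% and 5.71%, where 42.6% and 30.2% of all genes tested were). The 35 included EFEMP2 and GSTM2, which passed the filter only through the knockdown libraries, and the share without such genes was not computed.

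**Figure D5:**
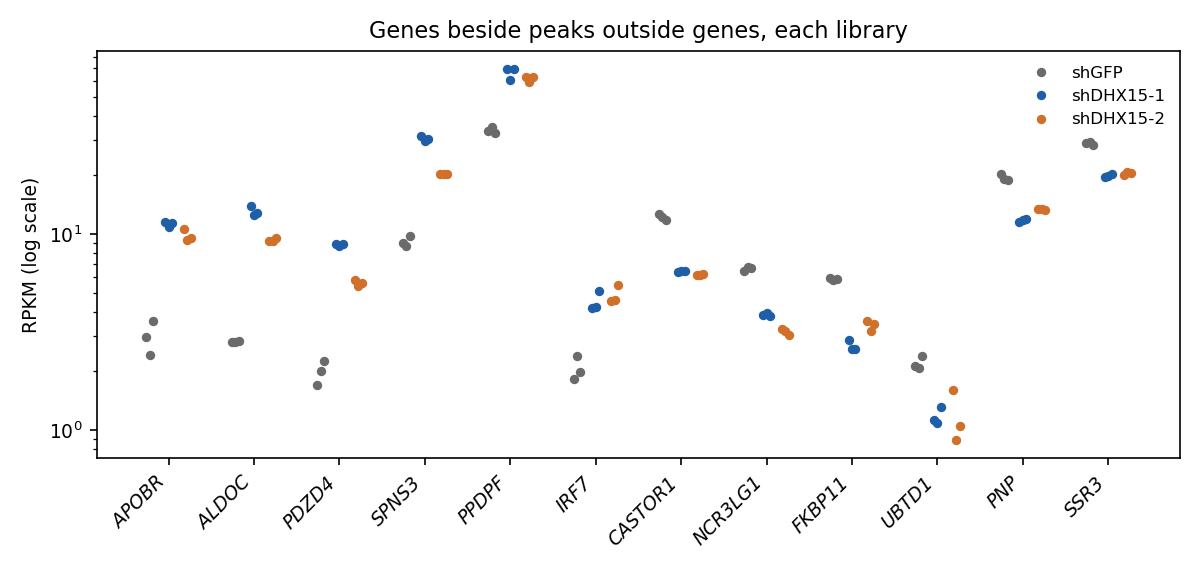
RPKM (y axis, log scale) of 12 genes beside peaks not contained in a gene, 1 point a library, 3 libraries each of shGFP, shDHX15-1 and shDHX15-2. For the 6 genes on the left all knockdown libraries lie above all shGFP libraries, and for the 6 on the right below. The genes were chosen as the largest rises and falls called in both hairpins.

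The largest rises called in both hairpins, ranked by the smaller of the 2, were those of APOBR, ALDOC, PDZD4, SPNS3, PPDPF and IRF7. APOBR, an apolipoprotein B receptor gene with a peak 976 bases away, was at 2.98, 2.40 and 3.60 RPKM with shGFP, 11.5, 10.9 and 11.3 with shDHX15-1, and 10.5, 9.27 and 9.50 with shDHX15-2. ALDOC, a glycolytic aldolase with a 51-base peak 32 bases upstream, was at 2.81, 2.79 and 2.82 RPKM, then 13.9, 12.5 and 12.7, and then 9.18, 9.17 and 9.57 in the same order of groups. PDZD4 was at 1.69, 1.99 and 2.24 RPKM with shGFP, 8.90, 8.63 and 8.92 with shDHX15-1, and 5.83, 5.43 and 5.59 with shDHX15-2. In each of these genes every knockdown library lay above every shGFP library, which the choice of the largest rises called makes likely. SPNS3, a relative of the sphingolipid transporter genes, rose by 1.65 and 1.07 on the log2 scale with shDHX15-1 and shDHX15-2, PPDPF by 0.95 and 0.85, and IRF7, a transcription factor of the interferon response, by 0.85 and 0.94. For these 6 genes the limma adjusted p for the mean of both hairpins ran from 1.39e-09 (ALDOC) to 8.94e-06 (IRF7).

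The largest falls were those of CASTOR1, NCR3LG1, FKBP11, UBTD1, PNP and SSR3. CASTOR1, an arginine sensor of the mTORC1 pathway, was at 12.7, 12.2 and 11.8 RPKM with shGFP, 6.42, 6.48 and 6.43 with shDHX15-1, and 6.14, 6.16 and 6.21 with shDHX15-2. PNP, a purine salvage enzyme that T cells need, was at 20.2, 19.1 and 18.9 RPKM with shGFP, 11.4, 11.7 and 11.9 with shDHX15-1, and 13.4, 13.4 and 13.2 with shDHX15-2. SSR3, whose upstream stretch is printed above, was at 29.0, 29.5 and 28.3 RPKM with shGFP, 19.5, 19.8 and 20.1 with shDHX15-1, and 19.9, 20.7 and 20.4 with shDHX15-2. The groups with a DHX15 hairpin lay below shGFP without overlap in all 3 genes, which the choice of the largest falls called makes likely. NCR3LG1, which encodes a ligand of a natural killer cell receptor, fell by 0.77 on the log2 scale for the mean of both hairpins, FKBP11, a prolyl isomerase of the endoplasmic reticulum, also fell by 0.77, and UBTD1 fell by 0.56. The limma adjusted p for the mean of both hairpins ran from 1.00e-08 (CASTOR1) to 0.000551 (UBTD1).

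Of the other genes with printed sequences, GSTM2 was at 0.644, 0.782 and 0.748 RPKM with shGFP and 1.03 to 1.43 in the 6 knockdown libraries, so that it passed the filter only through these, and rose by 0.36 on the log2 scale (limma adjusted p = 0.000357). ADM5 was at 4.70, 4.24 and 3.70 RPKM with shGFP and 3.39 to 3.97 in the knockdown libraries and was not called for the mean of both hairpins (limma adjusted p = 0.0558), and it fell by 1.01 with ciclopirox (0.00407). FDXACB1 was at 1.93, 1.99 and 1.82 RPKM with shGFP, 1.69, 1.78 and 1.69 with shDHX15-1, and 2.70, 3.37 and 3.21 with shDHX15-2, and was called higher with shDHX15-2 alone, the difference between the hairpins not being tested. SMS, spermine synthase, was at 55.1, 58.3 and 56.4 RPKM with shGFP and 55.2 to 62.7 in the 6 knockdown libraries, and was not called for the mean of both hairpins (log2 fold change 0.04, limma adjusted p = 0.252). SMS fell by 0.57 on the log2 scale with ciclopirox (limma adjusted p = 0.000373). BRSK1, a kinase gene, fell by 0.22 for the mean of both hairpins (limma adjusted p = 0.0105) and rose by 1.18 with ciclopirox (0.00568).

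With ciclopirox, 298 of the 341 genes were in the table and 292 passed the filter of at least 10 normalised counts in at least 3 of 6 libraries. Of the 292, 2 had no DMSO library at 10 normalised counts, and 1 of these 2 was called higher. In all, 115 of the 292 were higher (39.4%) and 61 lower (20.9%), on log2(normalised count + 1), against 23.5% and 25.0% of all genes tested (48.5% in either direction). Among genes with a peak inside only the shares were 35.3% and 20.9%. The median log2 fold change was 0.14, against -0.02 over all genes and 0.12 for genes with a peak inside only. Among the genes of upstream peaks, 9 of 29 were higher and 11 lower (31.0% and 37.9%), where 23.5% and 25.0% of all genes tested were.

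PFKFB4, a regulator of glycolysis with a 51-base peak 1 base past its 3′ end, had the largest rise. It was at 113, 124 and 105 normalised counts with DMSO and 2545, 2554 and 2329 with ciclopirox, a log2 fold change of 4.43 (SE 0.12, limma adjusted p = 6.13e-09). In the knockdown it was at 3.24, 3.37 and 3.04 RPKM with shGFP, 10.5, 11.1 and 10.7 with shDHX15-1, and 3.39, 3.71 and 3.48 with shDHX15-2, the difference between the hairpins not being tested. CDH24, a cadherin gene, was at 79.6, 81.5 and 38.9 normalised counts with DMSO and 487, 648 and 598 with ciclopirox. GPR162, a receptor gene, was at 49.5, 43.7 and 65.4 and then 300.0, 391 and 263. SPNS3 was at 2319, 2082 and 1828 and then 11232, 12117 and 10855. The ciclopirox libraries lay above the DMSO libraries without overlap in all 4, which were chosen as the largest rises called. MAPK11 and IZUMO4, from among the peaks with the highest folds, rose by 2.33 and 2.29 on the log2 scale (limma adjusted p = 2.49e-06 and 7.11e-06).

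The largest falls with ciclopirox were those of PMM2, TRMT61A, EEF1AKMT3 and SAPCD2. PMM2, a phosphomannomutase of protein glycosylation, was at 3966, 3959 and 3835 normalised counts with DMSO and 1594, 1718 and 1573 with ciclopirox. TRMT61A, a tRNA methyltransferase, was at 1935, 1567 and 1475 and then 727, 705 and 625. EEF1AKMT3, which methylates a translation elongation factor, fell by 1.15 on the log2 scale, and SAPCD2 by 1.11. PMM2, TRMT61A and EEF1AKMT3 were also called lower with each hairpin, and SAPCD2 with shDHX15-1 but not shDHX15-2 (limma adjusted p = 0.235), a difference that was not tested. SSR3 fell by 0.29 (limma adjusted p = 0.0361), a call that was lost in 5 of 12 other settings.

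Genes of 3′ end formation and termination were read from a list of 43 factors. A peak not contained in the gene was present at 4 of them, CPSF2, CSTF2, INTS6 and ZNF473, and 10 held a peak wholly inside. CPSF2, a subunit of the cleavage and polyadenylation specificity factor, had a 51-base peak over its 5′ end with 33 bases outside and a fold of 1.80. CSTF2, a subunit of the cleavage stimulation factor, had a 162-base peak there with 8 bases outside and a fold of 1.51. For the mean of both hairpins 17 of the 43 were called higher and 15 lower, where 42.6% and 30.2% of all genes tested were, with a median log2 fold change of 0.03 against 0.06 over all genes. With ciclopirox 2 were higher and 18 lower, where 23.5% and 25.0% of all genes tested were, with a median of -0.21 against -0.02 over all genes. CPSF2 was at 9.48, 9.46 and 9.86 RPKM with shGFP, 7.72, 8.07 and 7.48 with shDHX15-1, and 7.17, 6.89 and 6.56 with shDHX15-2. It fell by 0.79 on the log2 scale with ciclopirox (limma adjusted p = 9.78e-05), CSTF2 by 0.63 (0.000449) and INTS6 by 0.39 (0.0254). INTS6 was not called for the mean of both hairpins (log2 fold change -0.01, limma adjusted p = 0.707), and its peak lay on the strand of INTS6-AS1.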

How the data were processed

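The authors made the peak list from RIP of CUTLL1 cells. Per the file headers, the authors list for every peak its position and strand with a ratio (fold enrichment), p-value, FDR and score. Scores are the negative log2 of FDR values. No source used here gives the peak caller, the libraries compared or any pooling. Per the submitters' processing notes, tools included STAR (2.4.1.7 and 2.7.5c), FastQC 0.11.9 and DESeq2 1.32.0, with no roles stated, and builds were hg38, hg19 and mm10. Poly(A)+ RNA was read in the knockdown and ciclopirox libraries, per the labels' protocols.

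The authors deposited RPKM values for 19848 genes, whose low values are whole reads for 99.9% of genes (tolerance 1e-05 reads), and a normalised signal for ciclopirox, gene counts divided by size factors (100% whole, tolerance 0.01). The authors' deposited log2 fold changes, their p-values and their test score were not used. From the ciclopirox table, 67 entries with repeated symbols were left out.

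Peaks were compared with RefSeq gene spans of GRCh38.p14. On these, 46 of the 4499 peak starts, moved up by 1 base, and 32 of the peak ends equalled a gene's edge. A peak's gene was the one that left fewest of its bases outside, or the nearest. Among genes that tied, as for every peak inside several genes, a protein-coding gene was taken first. Strand came from the RefSeq promoter and microRNA tables. Genes were tested with limma 3.58.1 (trend) in R 4.3.3 with a pseudocount of 1, over all 9 knockdown libraries or all 6 ciclopirox libraries, Benjamini-Hochberg adjusted, two-sided. The script was tested on simulated data. edgeR 4.0.16 and DESeq2 1.42.0 on the recovered reads, other pseudocounts, no filter, quantile normalisation, a replicate block and leaving out each library served as alternatives. Peaks named were, in each class, the 4 with the highest fold, the 2 longest, all far ones, the lowest FDR and those nearest the limit; genes named were theirs, the 6 largest rises and falls called in both hairpins, the 4 largest with ciclopirox and those with several peaks. Other genes, such as BRSK1, SMS, the nearest upstream genes, the gene pairs and the genes of the 43-factor list with a peak, were added after their values were seen. The members, lists and rules were chosen with earlier results of these data known.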

Additional observations from a re-analysis of the deposited data

How the results depend on the processing

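Of the 349 peaks, 51 remained with no base shared with a gene and 126 with an FDR under 1e-05. The 2 far peaks became 4 at a limit of 5000 bases, 0 at 50000 bases, 4 by the nearest gene on the peak's strand and 4 by the nearest protein-coding gene, which left 2 of the 4 downstream peaks. The count was 519 with spans on the peak's strand only, 480 with protein-coding genes only and 259 with a tolerance of 10 bases. Chosen after seeing the data, moving starts by 1 base gave 321, of which 175 passed the 5′ end and 34 the 3′ end, and merging peaks within 1000 bases gave 344.

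With shDHX15-1, 60 lower genes became 92 after quantile normalisation, 95 with edgeR and 98 with DESeq2; the cause was not tested. Leaving out 1 library gave 164 to 175 higher and 68 to 73 lower for the mean of both hairpins, 174 to 183 and 56 to 62 with shDHX15-1, 141 to 149 and 70 to 78 with shDHX15-2, and 97 to 130 and 51 to 60 with ciclopirox. SSR3 with ciclopirox lost its call after quantile normalisation (-0.10), with edgeR (-0.25) and without DMSO library 2 or 3 or ciclopirox library 2 (-0.28, -0.27 and -0.19). Among the genes named for the largest rises and falls, none that was called in a comparison reversed. The other named genes were not followed one by one across these settings.

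Same-numbered knockdown libraries deviated together by r of -0.000609 to 0.0951 over 9 pairs, and others by -0.123 to 0.0466. The ranges overlap, with that of the same-numbered pairs the higher. With so few libraries a group, this check cannot decide whether same-numbered libraries were paired. With a replicate block 172 were higher and 71 lower for the mean of both hairpins, 183 and 62 with shDHX15-1, and 151 and 80 with shDHX15-2. By the last number in the column names, same-numbered DMSO and ciclopirox libraries gave r of 0.105, -0.108 and 0.162, and others -0.288 to 0.183. That number may not be the replicate number, so pairing cannot be decided here either. The replicate block gave 113 higher and 62 lower with ciclopirox. Peak values are not given by library, gene strands are incomplete, and the depth of the RIP libraries is unknown.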
